A study of Mus musculus with 8 samples.

Results

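The genes examined were 40 nuclear receptor and coactivator genes of the mouse, namely receptors of most families and the PGC-1 coactivators Ppargc1a and Ppargc1b, which belong to the circuitry on which RIP140 acts. Differential H3K27ac regions were linked to them in either of 2 ways. A region was nearest to a member when, among protein-coding genes, the transcription start closest to its centre belonged to that member, and it was within reach of a member when its centre lay within 100 kb of any of the member's starts. Of 11180 differential regions, 51 were nearest to a member, 66 lay within 100 kb of one, and 81 met either condition. Both conditions were met by 36.

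The histone mark H3K27ac, found at enhancers and promoters in use, had been profiled by CUT&RUN, in which an antibody directs a nuclease to chromatin carrying the mark. The 8 libraries made up 4 groups of 2, with Nrip1 KO and control myotubes each profiled with an H3K27ac antibody and with IgG. The KO cells carried floxed Nrip1 alleles (Nrip1 fl/fl) deleted by Cre recombinase, and controls were Cre-negative littermates. Both genotypes were grown as satellite cells from gastrocnemius muscle in medium with 0.39 µg/mL dexamethasone, a ligand of the glucocorticoid receptor, and were then differentiated for 4 days in a medium listed without it. The study attributes the cultures to its striated muscle-specific line, in which the muscle creatine kinase promoter, active mainly in differentiated muscle cells, drives Cre. The number of animals behind each culture was not given in the sources used here, nuclei were pooled before they were divided between antibodies, and the labels and the methods name different suppliers for the H3K27ac antibody.

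What was analysed were the authors' lists of regions called at a 2-fold or greater difference in peak intensity, 1 list for regions increased in KO myotubes and 1 for regions decreased. The lists hold positions and no intensity, so neither the size of a change, nor library depth, nor replicate spread, nor the level in IgG libraries is known here, and no test over samples could be made. In what follows, an increased or decreased region is 1 that the authors placed in that list. Intervals are exact Clopper-Pearson 95% intervals that cover counting error over regions only and treat regions as independent, although several share a gene. Because the lists hold only regions that differed, the labelled cell type could not be checked against myotube markers.

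Nuclear receptors are transcription factors that bind short DNA elements built from the hexamer AGGTCA, or AGAACA for the glucocorticoid class, and many of them are switched by lipophilic ligands. RIP140, the product of Nrip1, is a coregulator that docks onto ligand-bound and orphan receptors and recruits repressors, and in skeletal muscle it restrains the oxidative program. The PGC-1 coactivators dock onto many of the same receptors, above all the estrogen-related receptors (ERR) and the peroxisome proliferator-activated receptors (PPAR), and promote mitochondrial and fatty acid oxidation genes. Retinoid X receptors (RXR) are the shared partners with which PPAR, retinoic acid (RAR), thyroid hormone, vitamin D and liver X receptors form dimers.

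Sequences that the member regions carried are shown first, with the matches to receptor elements that they hold. The direct repeat DR1, in which 2 copies of AGGTCA stand in tandem with a 1-base spacer, is read by PPAR with RXR and by HNF4 and other receptors. The ERR element is the extended hexamer TCAAGGTCA. DR1 matches with up to 2 mismatches lay in 13.3% of increased and 19.4% of decreased member regions, near the 12.5% and 18.7% of all regions. Each stretch below is written 5′ to 3′ on the plus strand of mm10 (read from GRCm38.p6), none overlaps an annotated exon, and the capitals mark the element.

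Decreased regions of Rxra, with a DR1 of 2 mismatches, an exact ERR element on the minus strand and another DR1 of 2 mismatches:

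Rxra, chr2:27650839-27650971: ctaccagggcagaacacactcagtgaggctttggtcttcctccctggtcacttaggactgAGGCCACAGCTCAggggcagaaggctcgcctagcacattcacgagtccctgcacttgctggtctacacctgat

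Rxra, chr2:27704670-27704798: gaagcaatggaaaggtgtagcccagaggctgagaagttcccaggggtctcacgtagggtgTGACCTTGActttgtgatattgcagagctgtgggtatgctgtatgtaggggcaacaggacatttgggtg

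Rxra, chr2:27712320-27712441: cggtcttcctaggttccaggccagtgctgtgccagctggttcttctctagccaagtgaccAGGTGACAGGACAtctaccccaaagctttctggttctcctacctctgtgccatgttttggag

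Decreased regions of Nr6a1, Ppargc1a, Rarb and Thrb, with a DR1 in each (2 mismatches in the first pair, 1 in Rarb and Thrb), which in Thrb overlaps an exact ERR element, so that the capitals run over both:

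Nr6a1, chr2:38874800-38874932: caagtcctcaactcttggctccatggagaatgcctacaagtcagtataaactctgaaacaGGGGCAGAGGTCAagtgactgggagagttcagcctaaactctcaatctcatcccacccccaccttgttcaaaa

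Ppargc1a, chr5:51047097-51047229: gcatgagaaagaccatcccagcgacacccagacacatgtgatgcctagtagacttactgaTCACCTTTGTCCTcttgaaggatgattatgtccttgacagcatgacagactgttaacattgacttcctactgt

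Rarb, chr14:16577977-16578109: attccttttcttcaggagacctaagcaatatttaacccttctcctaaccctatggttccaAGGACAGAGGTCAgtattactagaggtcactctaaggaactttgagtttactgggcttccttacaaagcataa

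Thrb, chr14:17785502-17785637: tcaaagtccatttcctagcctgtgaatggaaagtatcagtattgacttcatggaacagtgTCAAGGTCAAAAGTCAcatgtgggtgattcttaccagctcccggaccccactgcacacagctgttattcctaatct

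Increased regions of Ppargc1a and Rorb, each with a DR1 of 2 mismatches on the minus strand:

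Ppargc1a, chr5:51638656-51638788: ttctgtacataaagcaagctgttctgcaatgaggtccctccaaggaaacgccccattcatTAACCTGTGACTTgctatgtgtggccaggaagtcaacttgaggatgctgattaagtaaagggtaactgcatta

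Rorb, chr19:19218367-19218499: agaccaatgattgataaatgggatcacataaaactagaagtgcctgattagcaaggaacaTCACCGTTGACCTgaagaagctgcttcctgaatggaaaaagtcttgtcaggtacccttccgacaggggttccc

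A decreased region 72.9 kb upstream of Hnf4a and nearest to Gdap1l1, shown because its DR1, on the minus strand, has no mismatch (chosen after its sequence was seen):

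Hnf4a, chr2:163434237-163434369: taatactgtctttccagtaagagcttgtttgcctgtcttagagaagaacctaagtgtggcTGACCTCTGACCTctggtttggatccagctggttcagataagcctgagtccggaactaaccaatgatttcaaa

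By nearest start, 15 of the 51 member regions were increased and 36 decreased, so that 29.4% were increased (interval 17.5 to 43.8) compared with 35.0% of all differential regions (34.2 to 35.9). Within 100 kb of a member, 14 regions were increased and 52 decreased, or 21.2% increased (12.1 to 33.0). Among all 9215 regions that lay within 100 kb of their nearest start, 32.5% were increased (31.6 to 33.5). The interval of the members held the share of all regions in each comparison, by a narrow margin in the second. With chromosomes 4, 7, 10 and 16 left out, where directions were uneven, 6 of 56 regions within 100 kb of a member were increased (10.7%, 4.03 to 21.9), and this interval lay below the 27.8% (26.7 to 28.9) of all regions within 100 kb of their nearest start on the same chromosomes. Regions within 100 kb of a member but nearest to another gene numbered 30, of which 3 were increased (10.0%, 2.11 to 26.5), an interval that lay below 32.5%. Both sets held 6 decreased regions at Vdr and 5 at Ppard, and the first held 6 at Rxra, although the intervals treat regions as independent. The chromosomes were left out for their direction in these same lists, and no test was run, so these shares are a description only. At the edge of the 100 kb limit, the outermost region counted was 99259 bp from a start of Ppard, and the first left out were decreased regions 100127 bp from a start of Nr3c2 and 100724 bp from a start of Nr1h3.

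**Figure D1:**
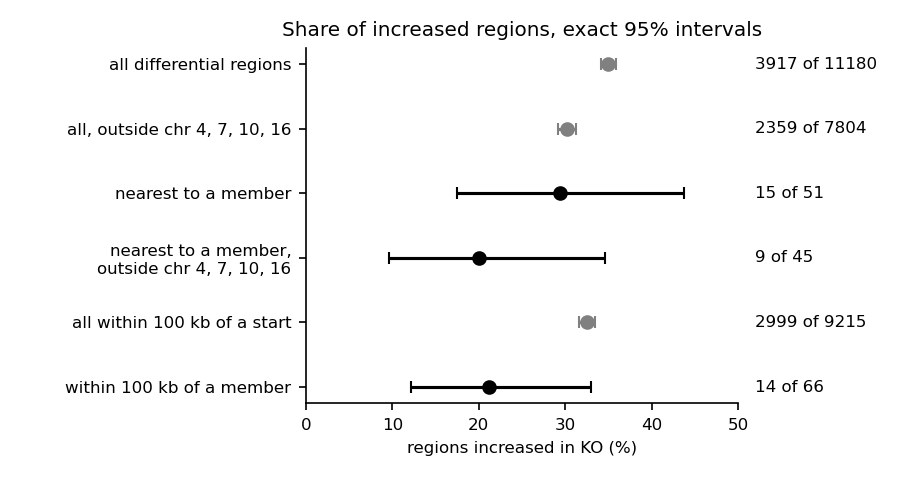
Share of regions that were increased in KO myotubes, in percent (x axis), for member regions (black) and all differential regions (grey), with exact 95% intervals as bars and the counts at the right. The members stood at 29.4% by nearest start and 21.2% within 100 kb, and at 20.0% by nearest start once chromosomes 4, 7, 10 and 16 were left out, compared with 30.2% of all regions outside these chromosomes.

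The direction of regions was uneven over chromosomes, which bears on single members. On chromosome 7, 97.7% of all differential regions were increased, and on chromosome 10, 69.1%, whereas on chromosomes 4 and 16 the shares were 7.53% and 7.80%. All 6 member regions on these 4 chromosomes were on chromosome 10 and all were increased, 5 of them at Esr1 and 1 at Nr1h4. Outside these chromosomes, 9 of 45 member regions were increased (20.0%, 9.58 to 34.6) compared with 2359 of 7804 of all regions (30.2%, 29.2 to 31.3). The share of all regions increased on a chromosome, averaged over the chromosomes of the 51 member regions, was 34.8%. The member regions, which are included in these shares, were themselves increased in 29.4%. The part of the chromosome in the direction of each member region was not tested.

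Of the 40 members, 19 were nearest to at least 1 region. Only increased regions were found for 4 members (Rorb, Nr1h4, Nr3c1 and Esr1), only decreased regions for 11 (Esrrg, Ppara, Ppargc1b, Rxra, Rara, Rarb, Rarg, Thrb, Rora, Nr4a2 and Nr6a1), and regions of both directions for 4 (Pparg, Ppargc1a, Nr3c2 and Nr5a2). At least 1 increased region was thus nearest to 20.0% of members, compared with 10.6% of the 21938 protein-coding genes, and at least 1 decreased region to 37.5%, compared with 17.8%. The stretch of genome that was closer to a member's start than to that of any other gene amounted to 17.2 Mb, or 0.632% of the genome. In it lay 0.870 increased and 2.09 decreased regions per Mb, compared with 1.44 and 2.66 per Mb over the genome. These densities rested on Hnf4g, near the start of chromosome 3, whose 4.426 Mb held no region. Stretches were counted from the first base of a chromosome, and unsequenced bases were not removed. Without Hnf4g, a setting chosen after seeing the data, there were 1.17 increased and 2.81 decreased regions per Mb, the latter above the genome's value. Regions of either direction then numbered 3.98 per Mb, compared with 4.10. The share of members with a region was thus above that of all genes. The density over all 40 members, 2.96 regions per Mb, was below the 4.10 of the genome, and it came close to that value only without Hnf4g.

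Within 100 kb of a start, 8 members had an increased region (20.0%, compared with 24.1% of protein-coding genes) and 21 had a decreased one (52.5%, compared with 42.7%). No region of either direction lay within 100 kb of 15 members, among them Rxrg, Thra, Nr1d1, Nr1d2, Nr1h3, Esr2, Pgr, Nr4a3, Nr2c2, Nr2f1 and Hnf4g, which had none by nearest start either.

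**Figure D2:**
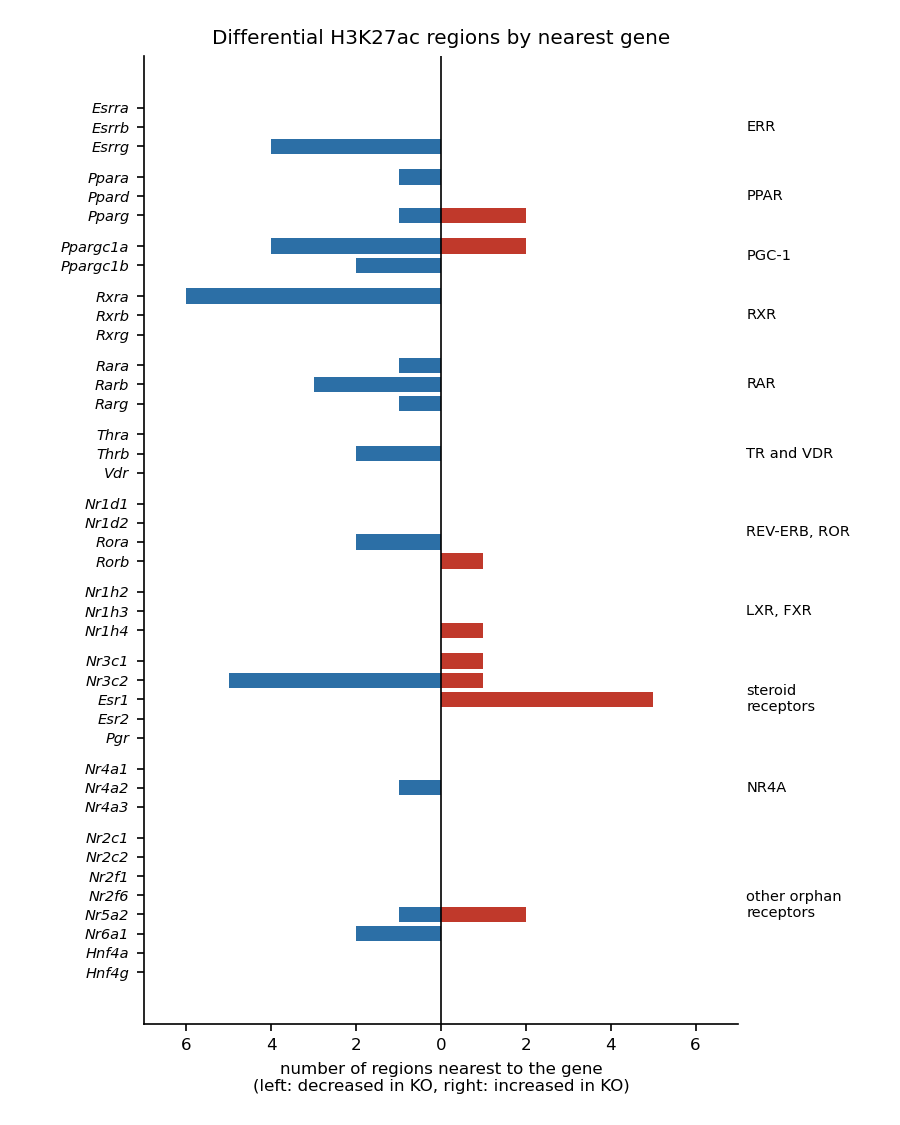
Number of differential regions nearest to each of the 40 members (x axis), with decreased regions to the left (blue) and increased regions to the right (red), grouped by receptor family. Rxra had the most decreased regions, 6, with none increased, and Esr1 the most increased regions, 5, with none decreased.

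Among the ERR genes, orphan receptors that drive mitochondrial and oxidative genes together with PGC-1, only Esrrg was nearest to any region. Esrrg (chr1:187608791-188214885, plus strand) had 4 decreased regions of 501 to 1153 bp, 1 of them 158 kb upstream and 3 within introns of the gene, 61.3, 68.1 and 80.1 kb from the closest of its annotated starts. On chromosome 1, 31.6% of the other differential regions were increased. Esrra and Esrrb were nearest to none, and each had 1 decreased region within 100 kb, 57.1 kb upstream of Esrra at the start of Fkbp2 and 68.1 kb upstream of Esrrb. The ERR family thus had 4 decreased and no increased regions by nearest start, and 5 and none within 100 kb.

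The PPAR genes encode fatty acid sensors, of which Ppara and Ppard promote fatty acid oxidation in muscle and Pparg drives adipocyte differentiation. Pparg (chr6:115360951-115490399, plus strand) had regions of both directions. An increased region of 501 bp lay 44.9 kb upstream and another of 626 bp lay inside the gene, 17.3 kb past an internal start, whereas a decreased region of 501 bp lay in its intron 6. The intragenic increased and decreased regions were separated by 80.3 kb. Ppara (chr15:85734983-85802819, plus strand) had a decreased region of 1978 bp that lay 22.7 kb upstream, and another 2 decreased regions past its 3′ end were nearest to Cdpf1. Ppard was nearest to no region, although 5 decreased regions lay within 100 kb of its starts, nearest to Scube3, Zfp523, Tead3, Tulp1 and Fkbp5. The broadest of these covered 3885 bp in an intron of Tead3, 46.7 kb from a Ppard start. In all, the PPAR genes had 2 increased and 2 decreased regions by nearest start, and 2 and 9 within 100 kb.

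Ppargc1a, which encodes the coactivator PGC-1α that promotes mitochondrial biogenesis, had regions of both directions on opposite sides of the gene (chr5:51454250-51567726, minus strand). The 2 increased regions lay upstream, 70.6 and 97.3 kb from the closest start, and were 1269 and 761 bp wide. The 4 decreased regions lay downstream at 203, 368, 508 and 513 kb from the closest start, where Ppargc1a was still the nearest protein-coding start. The 2 most distant were among the broadest member regions, at 3206 and 3815 bp. Between the decreased region closest to the gene and the increased region closest to it lay 287 kb that held the gene body and no differential region. DR1 matches occurred on both sides, in the region 508 kb downstream and in that 70.6 kb upstream (sequences above), and the latter also held a MEF2 element and 2 palindromes of the glucocorticoid type. Ppargc1b, its paralog PGC-1β (chr18:61298136-61400431, minus strand), had 2 decreased regions of 791 and 954 bp in intron 1, centred 6.41 and 30.5 kb past the start. On chromosomes 5 and 18, the other differential regions were increased in 30.2% and 45.2%, respectively.

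**Figure D3:**
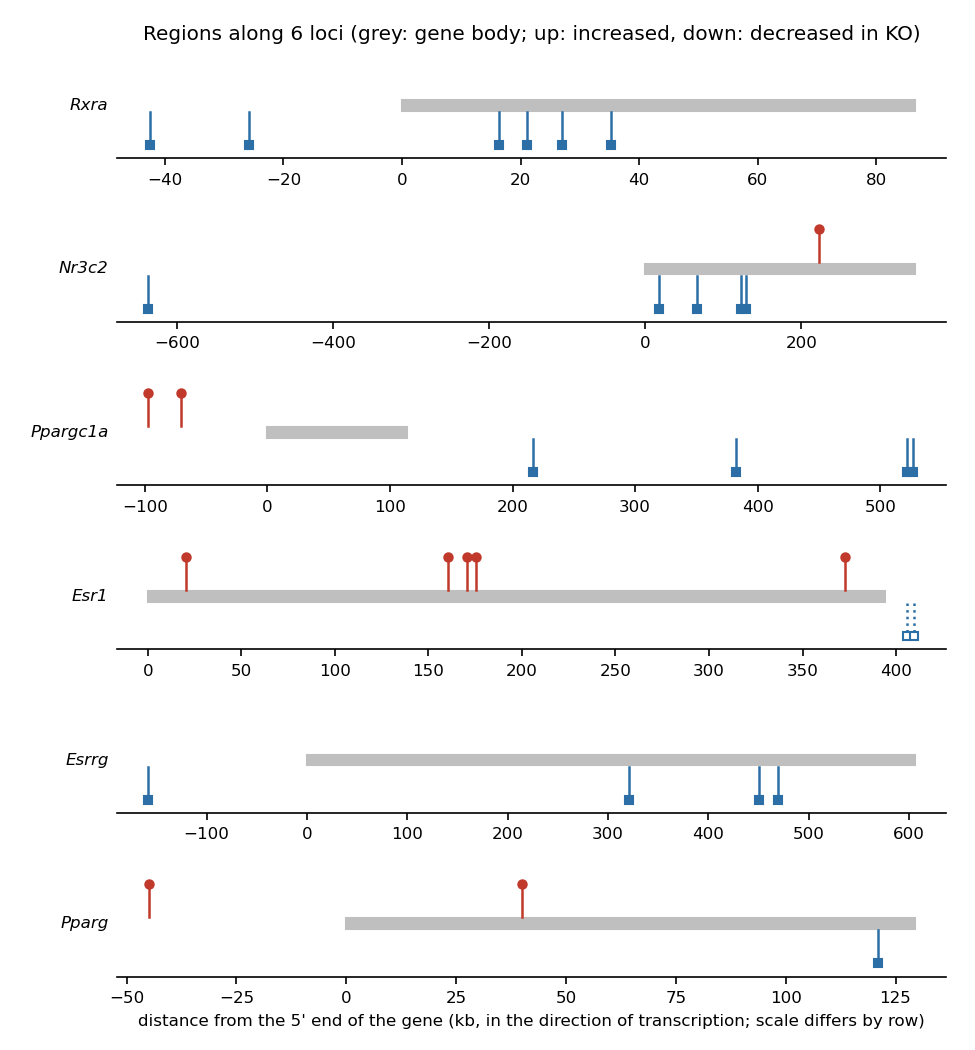
Positions of regions (up and red, increased in KO; down and blue, decreased in KO; open with dotted stems, within 100 kb but nearest to another gene) along 6 of the members with at least 3 nearest regions, as distance in kb from the 5′ end of the gene in the direction of transcription (x axis, scale differing between rows), with the gene body in grey. Regions of Rxra and Esrrg were all decreased, Esr1 carried 5 increased regions inside the gene, and increased and decreased regions of Ppargc1a lay on opposite sides of it.

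Rxra, which encodes the RXR isoform found in most tissues (chr2:27676440-27762957, plus strand), had the most member regions of a single direction. All 6 were decreased, together covering 12480 bp. They lay at 42.5 and 25.9 kb upstream of the gene and between 16.3 and 35.3 kb past its 5′ end, the latter 4 all in intron 1. The intronic regions were 4344, 1755, 3083 and 1465 bp wide, the first being the broadest of all member regions. Their GC content was between 53.7% and 55.2%, also in the 2 upstream regions. The stretch of genome nearest to Rxra was 0.211 Mb, giving 28.4 regions per Mb, compared with 4.10 per Mb over the genome. Such values are large where a stretch is short, and Rarg had 38.1 per Mb from 1 region in 0.026 Mb. Rxra was singled out for its number of regions, so its density is a description only. On chromosome 2, 24.6% of the other differential regions were increased. The closest increased region was 477606 bp away. Rxrb had 1 decreased region within 100 kb, in an intron of Col11a2, and Rxrg, the isoform enriched in skeletal muscle, had none.

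The retinoic acid receptors, which form dimers with RXR, each had decreased regions and no increased one. Rarb (chr14:16430839-16819156, minus strand) had 3, all within the gene and 501 to 1320 bp wide, at 2.24, 27.6 and 89.6 kb from the closest start, the second of them centred on a non-coding exon, and a further decreased region in its intron 3 was nearest to Top2b. The region at 2.24 kb held the DR1 of 1 mismatch shown above. Rara (chr11:98927818-98974942, plus strand) had 1 decreased region of 501 bp in intron 3, and Rarg (chr15:102234938-102257517, minus strand) had 1 of 1176 bp in intron 3, 1.25 kb from an internal start. The Rarg region had the highest GC content of the member regions, 65.2%. On chromosomes 14, 11 and 15, the share of other regions that were increased was 40.2%, 16.2% and 26.4%, respectively.

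Of the thyroid hormone and vitamin D receptors, Thrb (chr14:17660261-18038090, plus strand) had 2 decreased regions of 1309 and 501 bp within the gene. The broader held the overlapping ERR element and DR1. Thra and Nr1d1, whose 3′ ends overlap on opposite strands of chromosome 11, had no region within 100 kb, and the decreased region closest to either was that in Rara, 200023 bp from Thra and 178276 bp from Nr1d1. Vdr was nearest to no region, yet 6 decreased regions lay within 100 kb of its starts, 3 on the downstream side in introns of Hdac7 and 3 on the upstream side nearest to Tmem106c. These measured 710 to 2394 bp. The RXR and RAR genes together had 11 regions by nearest start and 14 within 100 kb, and with the thyroid hormone and vitamin D receptors 13 and 21, all of them decreased. These families were pooled after their counts had been seen, and several regions share a gene, so the count is a description only.

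**Figure D4:**
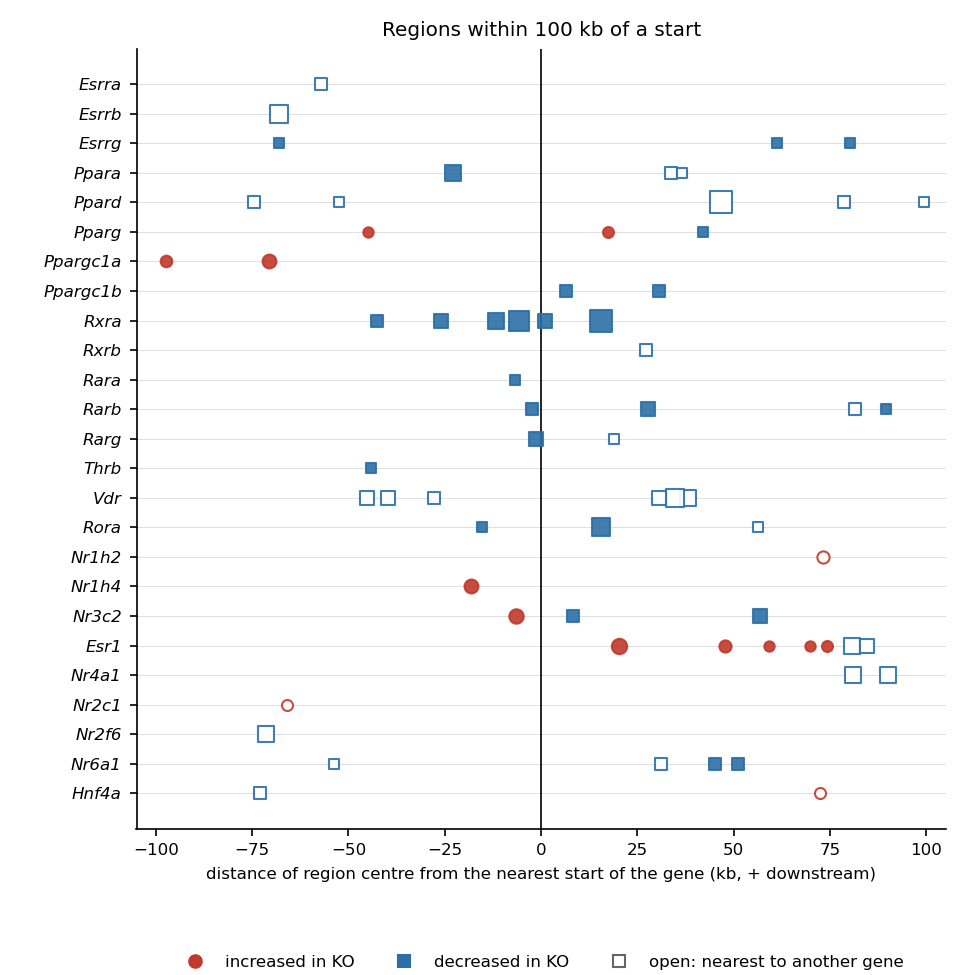
Regions whose centre lay within 100 kb of a start, for the 25 members that had any, by distance in kb from the closest start of that member (x axis, positive values downstream in the direction of transcription). Red circles are increased and blue squares decreased, open symbols are regions nearest to another gene, and symbol size grows with the width of the region. Rxra, Vdr and Ppard had 5 or 6 decreased regions each and no increased one, and those of Vdr and Ppard were all nearest to other genes.

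REV-ERB and ROR receptors compete for the same elements in clock gene control, REV-ERB as repressors and ROR as activators. The REV-ERB genes Nr1d1 and Nr1d2 had no region by either assignment. Rora (chr9:68653786-69388246, plus strand) had 2 decreased regions inside the gene, of 634 and 2536 bp, 15.4 and 15.6 kb from internal starts, and another within its intron 1 was nearest to Ice2. Rorb had an increased region of 1224 bp that lay 108 kb upstream, with the DR1 shown above and the lowest GC content among increased member regions, 36.4%. Of the oxysterol and bile acid receptors, Nr1h4 (FXR) had 1 increased region of 1291 bp 18.1 kb upstream, and Nr1h2 (LXRβ) had 1 within 100 kb, nearest to Josd2. These genes lie on chromosomes 10 and 7, where 69.0% and 97.7% of the other regions were increased.

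The steroid receptors held 7 of the 15 increased member regions. Esr1, encoding estrogen receptor α (chr10:4611593-5005614, plus strand), had 5 increased regions, all intronic, in introns 1, 4, 4, 5 and 8, with widths of 1680, 501, 501, 636 and 881 bp. Their GC content ranged from 38.9% to 44.1%. Past the 3′ end of Esr1 the direction turned, with 2 decreased regions nearest to Syne1 and the closest 31.6 kb beyond the last increased region of Esr1. Without Esr1, 21.7% of the remaining member regions were increased by nearest start and 15.3% within 100 kb. Thus a single gene on a chromosome with 68.8% increased regions among the others provided 5 of the 15 increased member regions.

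Nr3c2, which encodes the mineralocorticoid receptor (chr8:76899442-77245012, plus strand), had 5 decreased regions and 1 increased. Of the decreased regions, 4 lay in intron 2 at 17.0, 65.7, 122.9 and 128.4 kb past the 5′ end, and 1 lay 637 kb upstream. The increased region, of 1429 bp, lay in intron 3, 92.4 kb beyond the last decreased region and 6.64 kb from an internal start. Nr3c1, which encodes the glucocorticoid receptor, had 1 increased region of 626 bp, 117 kb upstream, and no region within 100 kb. Esr2 and Pgr had none by either assignment.

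In the NR4A family, immediate early receptors that respond to exercise and calcium signals, Nr4a2 had 1 decreased region 294 kb downstream. Nr4a1 had 2 decreased regions within 100 kb, both in introns of Krt80, and Nr4a3 had none. Of the remaining orphan receptors, Nr5a2 (LRH-1) had 2 increased regions, 127 kb downstream and 395 kb upstream of its closest start, and a decreased region 438 kb upstream, 41.1 kb beyond the second increased one. Nr6a1 (GCNF) had 2 decreased regions of 656 and 1044 bp within the gene and another 2 within 100 kb, nearest to Nr5a1 and Wdr38. Hnf4a was nearest to none, and had a decreased region 72.9 kb upstream and an increased one 72.4 kb from its closest start on the downstream side, 188 kb apart. Nr2c1 had 1 increased and Nr2f6 1 decreased region within 100 kb, at 65.9 and 71.4 kb. Among members, the longest stretch without a region was that of Hnf4g, 4.426 Mb near the start of chromosome 3. Unsequenced bases were not removed from this length, so how much of it could hold a region is not known here.

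By nearest start, member regions were centred away from promoters. None of the 51 was centred within 1 kb of a protein-coding start, compared with 1102 of all 11179 regions (9.86%). For this count of 0, the limit used in place of an exact interval was the share of 3 regions, 5.88%. The closest of the 51 were decreased regions of Rxra (1126 bp), Rarg (1254 bp) and Rarb (2244 bp), each beside an internal start. These distances are of centres, and the Rxra and Rarg regions, 1465 and 1176 bp wide, reached to within 1 kb of the start. Of regions within 100 kb of a member, those at Scube3 (708 bp) and Fkbp2 (924 bp) were within 1 kb of that other gene's start. The median distance to the closest start was 69.7 kb for increased and 44.6 kb for decreased member regions, compared with 25.1 and 17.1 kb over all regions. The members, 40 of 21938 genes, held 17.2 of 2726 Mb by nearest start. The part of these long stretches in the distances was not tested. Inside the member's own gene lay 7 of 15 increased (46.7%) and 25 of 36 decreased member regions (69.4%). Over all regions, 49.0% of increased and 53.4% of decreased regions lay inside the gene with the nearest start.

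In width and base composition the member regions were close to all regions of the same direction. Median width was 761 bp for increased and 816 bp for decreased member regions, compared with 777 and 864 bp overall. GC content averaged 43.2% ± 4.70 (SD, n = 15 regions) in increased and 48.4% ± 5.99 (n = 36) in decreased member regions. Over all regions, the means were 43.5% ± 5.56 (n = 3917) and 48.0% ± 5.28 (n = 7262). The gap between directions was thus similar in members and in all regions, and in members the ranges of 36.4% to 50.5% and 36.9% to 65.2% overlapped.

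**Figure D5:**
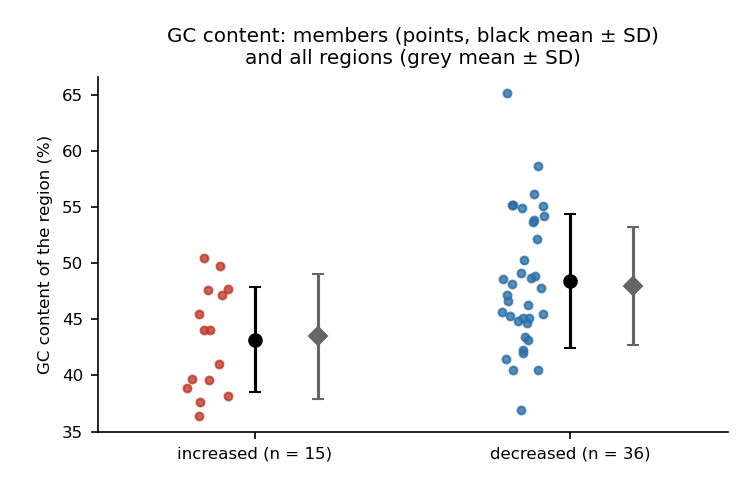
GC content in percent (y axis) of each member region by nearest start (points), with the mean ± SD of members (black circles) and of all differential regions of the same direction (grey diamonds). Means were 43.2% for increased and 48.4% for decreased member regions, compared with 43.5% and 48.0% over all regions.

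Receptor elements were searched on both strands over the whole of each region, with up to 2 mismatches over both hexamers for repeats and palindromes. The AGGTCA hexamer occurred in 9 of 15 increased and 20 of 36 (55.6%) of decreased member regions, compared with 41.9% and 52.9% of all increased and decreased regions. DR1 occurred in 13.3% and 19.4% of member regions, compared with 12.5% and 18.7% of all. The repeats with spacers of 4 bases (DR4, read by thyroid hormone and liver X receptors with RXR) and 5 bases (DR5, read by RAR with RXR) occurred in 16.7% and 13.9% of decreased member regions, compared with 15.5% and 14.7% of all decreased regions. Among increased member regions, 1 of 15 held a DR4 (6.67%, compared with 9.57% of all) and none a DR5 (compared with 8.86%). For these repeats, the shares of decreased member regions were close to those of all decreased regions.

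The exact ERR element was found in 2 decreased member regions, 1 at Rxra and 1 at Thrb (5.56%, compared with 3.37% of all decreased regions), and in no increased one (compared with 1.97%). The NR4A element AAAGGTCA was found in 3 decreased member regions, at Rxra, Ppargc1a and Ppargc1b (8.33%, compared with 6.75%), and in no increased one (compared with 5.82%). Palindromes of AGGTCA with 3 bases between (estrogen type) and of AGAACA with 3 bases between (glucocorticoid type) each occurred in 2 increased (13.3%) and 2 decreased member regions (5.56%). Over all regions, the estrogen type was found in 6.08% and 8.62%, and the glucocorticoid type in 9.91% and 10.1%, of increased and decreased regions. None of the 5 increased regions of Esr1 held either palindrome.

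Of elements for other factors, the E-box CAGCTG, read by MyoD and myogenin, lay in 26.7% of the increased and 47.2% of the decreased member regions, compared with 44.1% and 57.4% of all. The AP-1 element (TGACTCA or TGAGTCA) was found in 20.0% and 30.6%, compared with 25.6% and 24.7%. The MEF2 element was present in 1 increased member region, that upstream of Ppargc1a, and in no decreased one, compared with 4.85% and 2.69% of all. Since the hexamer is contained in the ERR and NR4A elements and in exact repeats and palindromes, these counts overlap. A match describes the letters of a region and does not show that a receptor binds there.

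Other genes of the same circuitry were counted by nearest start, against the 10.6% and 17.8% of protein-coding genes nearest to an increased and a decreased region. Of 11 nuclear receptors outside the 40, an increased region was nearest to 2 (18.2%) and a decreased region to 1 (9.09%). Nr2f2 (COUP-TFII) had 17 increased regions on chromosome 7, and Nr5a1 had 1 decreased region. These 17 regions of Nr2f2 are not among the 15 increased member regions. The shares given above thus hold for the 40 members and not for all nuclear receptor genes. Of 18 coregulator genes, 5 had an increased (27.8%) and 7 a decreased region (38.9%), 3 of them both. Tbl1xr1, which links corepressor complexes to the proteasome, had 4 increased and 3 decreased regions. Crebbp, an acetyltransferase that deposits H3K27ac, had 1 increased and 2 decreased, on chromosome 16. Nrip1 itself had 3 decreased regions on chromosome 16, where 7.80% of all regions were increased, and 2 of the 3 lay inside the gene. Nrip1 is the gene deleted in the KO, and whether these regions lie in the deleted stretch was not tested.

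Target genes were counted against the same background. Of 22 PPAR target genes of muscle, 4 had an increased (18.2%) and 1 a decreased region (4.55%). The increased regions were at Dgat2 (3 regions, chromosome 7), Acsl1, Cd36 and Ucp2, which serve triglyceride synthesis, fatty acid activation, fatty acid uptake and mitochondrial transport, and the decreased region was at Pdk4, the kinase that limits glucose oxidation. Of 20 ERR and PGC-1 target genes, 2 had an increased (10.0%) and 5 a decreased region, compared with 10.6% and 17.8% of all protein-coding genes, among which decreased was also the more frequent direction. Vegfa, the angiogenic factor, had 5 decreased regions, the closest of them 95167 bp from a start. In EDL muscle of KO mice, the paper reports increased Vegfa expression. That was RNA of a whole muscle, whereas the regions here are of H3K27ac in cultured gastrocnemius myotubes. For Dgat2 and Acsl1, the paper reports raised expression in KO myotubes. It also found RIP140 at the Dgat2 promoter in myotubes of a cell line that overexpressed it. Sdhb, a subunit of respiratory complex II, had 2 decreased regions, the closest 600 bp from a start. It lies on chromosome 4, where 7.53% of all regions were increased. Nrf1, a regulator of respiratory chain genes, had 1 of each direction. No difference between lists was tested, and Dgat2 and Ucp2 lie on chromosome 7 where nearly all regions were increased. Of 16 genes of retinoid, thyroid hormone, vitamin D and glucocorticoid handling, 2 had an increased (12.5%) and 2 a decreased region (12.5%). Rdh10, which makes the precursor of retinoic acid, had 4 decreased regions. Aldh1a3, which makes retinoic acid, had 2 increased, on chromosome 7, where 97.7% of all regions were increased. Dio2, which activates thyroid hormone, had 2 increased and 1 decreased.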

How the data were processed

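CUT&RUN was performed on 8 libraries, 2 for each of H3K27ac and IgG in KO and control myotubes. The authors aligned paired reads to mm10 with BWA-MEM2 (version 2.2.1), called broad peaks with HOMER (version 4.11) and deposited regions that differed by 2-fold or more. How replicates and IgG entered is not stated. The deposited score was 1 in every region and was not used, and depth is unknown.

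The members and lists were chosen with earlier results of these data known. Groups were taken from the sample titles. Region centres were assigned to starts of 21938 protein-coding genes (GENCODE M21, chromosomes 1 to 19, X and Y) with Python 3.11.15, numpy 2.4.6, scipy 1.17.1 and pysam 0.24.0, and figures were drawn with matplotlib 3.10.9. Of the regions, 1 on an unplaced sequence was left out by position. Introns were numbered along the APPRIS principal transcript with the longest coding sequence. Coordinates are counted from 1. A centre within 1 kb of a protein-coding start was promoter-proximal, otherwise the base at the centre decided.

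Assignment and motif code was tested on planted regions and motifs. All members are accounted for. Positions are given for members with at least 3 regions, a promoter-proximal region or both directions, and most others are located too, and up to 3 genes per list are named by number of regions, with Nrip1, Ucp2 and Pdk4 named after their values were seen. Some genes of the lists are counted but not reported here by name. Sequences shown are member regions with an ERR element or DR1, except on chromosome 18, plus Hnf4a. No statistical test was run. Alternatives covered candidate genes, starts, distance limits, region width, joining, chromosomes, mismatches and the central 500 bases.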

Additional observations from a re-analysis of the deposited data

How the results depend on the processing

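Counts by nearest start moved by over 1.5 times in the following settings. With all annotated genes as candidates, 18 regions were decreased, 4 members had an increased and 7 a decreased region. Among regions at least 1 kb wide, 6 were increased and 16 decreased. Without chromosomes 4, 7, 10 and 16, 9 were increased, and with the nearest start limited to 100 kb, 5 members had an increased region. The share increased ranged from 20.0% to 35.7%.

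Counts by distance followed the window. At 50 kb, 6 regions were increased and 31 decreased, and 4 members had an increased region. At 250 kb, these were 29, 118 and 18. With the 5′ end of the gene as its only start, 8 were increased and 34 decreased, and among regions at least 1 kb wide 4 were increased and 24 decreased, with 4 members having an increased one. Without chromosomes 4, 7, 10 and 16, 6 regions were increased (10.7%), at 4 members. Without Esr1, a setting chosen after seeing the data as was that without Rxra, 9 were increased. By nearest start, 3 member regions were centred within 2.5 kb of a start, and the share over all regions was not computed at that distance. Why counts moved was not tested beyond what each setting removes.

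DR1 in decreased member regions was at 5.56% in the central 500 bases (8.47% of all decreased regions) and at 5.56% with 1 mismatch (3.50% of all). In increased ones it was 0% in both (6.20% and 1.40% of all increased). In decreased ones the ERR element was at 0% (1.38% of all) and DR4 at 5.56% in the central 500 bases. No paired analysis was possible because the lists hold no value per library.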

Other observations

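Clock genes and glucocorticoid receptor target genes were counted by nearest start as well, beside 10.6% and 17.8% of protein-coding genes with an increased and a decreased region. Of 14 clock genes tied to REV-ERB and ROR, 4 had an increased (28.6%) and 5 a decreased region (35.7%), 2 of them both. Arntl, the core clock activator BMAL1, had 9 increased regions, all on chromosome 7, where 97.7% of regions were increased. Hlf had 1 region of each direction, as did Nfil3.

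Of 14 glucocorticoid receptor target genes, 3 had an increased (21.4%) and 7 a decreased region, 2 of them both. Pik3r1, a regulatory subunit of PI3-kinase, had 3 increased and 5 decreased regions. Fkbp5, a chaperone cofactor of the receptor, had 1 increased and 2 decreased, and Foxo1, a driver of muscle atrophy genes, had 3 decreased. Both genotypes had been grown with dexamethasone.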
